A study of Homo sapiens with 5 samples.

Results

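Matrix metalloproteases (MMPs), ADAMs, ADAMTS proteases and their tissue inhibitors (TIMPs) were followed in RPE1 cells, an established human retinal pigment epithelial line, after doxorubicin. The members were all genes of the count table whose symbol is MMP, ADAM, ADAMTS or TIMP followed by a number, which gave 69 of 26485 genes: 24 MMP, 22 ADAM, 19 ADAMTS and 4 TIMP genes. Poly-A RNA was sequenced from wild-type cells kept for 18 h in the solvent DMSO (2 libraries), in 0.2 µM doxorubicin (2 libraries) or in 0.34 µM doxorubicin (1 library). Doxorubicin is an anthracycline that traps topoisomerase II on DNA and evicts histones. The 3 doxorubicin libraries were set against the 2 DMSO libraries, so that all values come from 1 line at 1 time point.

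MMPs are zinc endopeptidases that cleave collagens, gelatin, proteoglycans and other matrix proteins, and most are made as inactive proenzymes. Membrane-anchored ADAMs shed the outer parts of surface proteins such as growth factors, cytokines and Notch receptors. ADAMTS enzymes are secreted, carry thrombospondin repeats and cut proteoglycans, procollagens or von Willebrand factor. TIMPs bind the active sites of these enzymes, and the retinal pigment epithelium uses both enzymes and inhibitors to renew the basement membrane on which it sits.

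The ADAMTS genes had the largest median fold change of the 4 families. ADAMTS7, which cuts cartilage oligomeric matrix protein, rose 5.07-fold and was the 1 member past the threshold of the edgeR quasi-likelihood test (Benjamini-Hochberg adjusted p under 0.01 over all genes tested). ADAMTS5 and ADAMTS1, both proteoglycan cleavers, and ADAMTS13, the protease of von Willebrand factor, were also higher in all 3 doxorubicin libraries but did not pass. DESeq2 at the same threshold called all 3 (adjusted p = 6.77e-10 for ADAMTS5, 0.00037 for ADAMTS1 and 1.6e-05 for ADAMTS13), where it called 14.1% of all genes. MMP16 and ADAM22 were lower in all 3 doxorubicin libraries and did not pass the edgeR test either, while DESeq2 called both (adjusted p = 0.00199 and 0.00121). The abundant members MMP2, MMP14, TIMP2 and ADAM9 differed by less than 1 log2 unit.

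Total counts per library ran from 23773061 to 36725345, and members took between 0.623 and 0.822% of them. Counts were scaled to CPM, the counts per 1000000 counts of a library, with TMM factors from 0.975 to 1.04. A filter on low counts left 36 members among the 14187 genes tested: 11 MMP, 11 ADAM, 10 ADAMTS and 4 TIMP genes. FOS, an immediate-early gene, differed between libraries that carry different replicate numbers, at 118 and 1.18 CPM in DMSO, 127 and 0.291 CPM at 0.2 µM and 50.3 CPM at 0.34 µM. Its part in the results on the members was not tested. Of the markers of the retinal pigment epithelium, RPE65 had 3 to 8 counts a library, TTR 0 or 1 count and RLBP1 0 to 3, while the transcription factors MITF and OTX2 were present in every library with at least 601 counts. The summed level of the 9 markers was 54.7 to 88.0 CPM in DMSO and 71.6 to 80.9 CPM in doxorubicin. Within this list PMEL, with 7 and 5 counts in the DMSO libraries and 22, 32 and 46 after doxorubicin, and BEST1, with 26 and 14 against 86, 30 and 142, were higher in all 3 doxorubicin libraries (edgeR adjusted p = 0.0264 and 0.0823). MITF, OTX2 and SERPINF1 overlapped between the groups, with log2 fold changes of 0.05, −0.02 and −1.04, and TYR had 0 to 5 counts a library. Over the 5 tested markers of the list, 3 log2 fold changes were positive and 2 negative, with a median of 0.05. Endothelial markers summed to 2.06 to 6.11 CPM in DMSO and 2.20 to 7.90 CPM in doxorubicin, and leukocyte markers to 95.3 to 103 CPM and 81.2 to 113 CPM. Most of the leukocyte sum was CD68, with a log2 fold change of −0.10 and overlapping groups. CSF1R was lower in all 3 doxorubicin libraries, at 2.56 and 3.995 CPM in DMSO and 2.32, 2.41 and 2.29 CPM in doxorubicin (edgeR adjusted p = 0.338). PTPRC had 5 and 7 counts in the DMSO libraries and 25, 53 and 72 after doxorubicin (edgeR adjusted p = 0.0212, DESeq2 adjusted p = 0.000571). LYZ had 0 and 0 against 4, 4 and 15, and CD14 at most 2. PMEL and PTPRC passed the filter on low counts through their doxorubicin libraries alone, so that their edgeR p-values are no separate evidence of a rise. The simple-epithelium markers KRT8 and KRT18, with CDH1 and EPCAM near 0, summed to 583 to 696 CPM in DMSO and 970 to 1176 CPM in doxorubicin, and the 4 mesenchymal markers to 15255 to 25798 CPM and 16593 to 25454 CPM. The part of the keratin, PMEL, BEST1, PTPRC, CSF1R and LYZ differences in the results on the members was not tested. In bulk RNA, fewer cells of a kind and less RNA per cell cannot be told apart.

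Levels were compared between genes as CPM per kilobase of the canonical transcript. MMP2, the secreted gelatinase that TIMP2 and MMP14 bring to the cell surface, stood at 650 ± 91.7 CPM per kb in DMSO (SD, n = 2). TIMP2 followed at 286 ± 74.5 and MMP14 at 285 ± 35.9 CPM per kb, and the pair did not differ beyond their spread. ADAM9 reached 163 ± 23.2 and TIMP1 109 ± 10.3 CPM per kb. MMP2, MMP14 and TIMP2 together took 67.6 to 70.3% of all member counts in each library. ADAMTS7 ranked 15th of the 36 tested members per kilobase in DMSO and 9th in doxorubicin, ADAMTS1 12th and 7th, and ADAMTS5 29th and 20th.

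**Figure D1:**
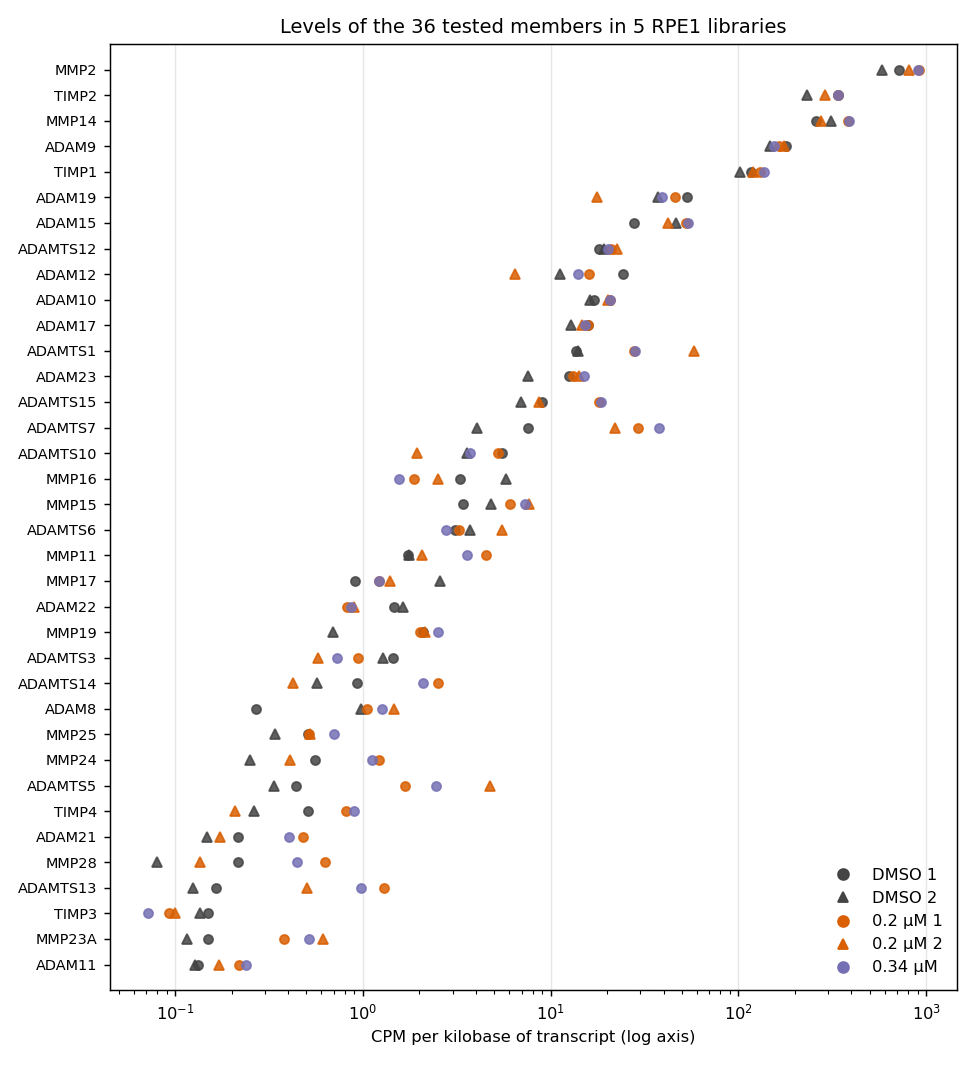
CPM per kilobase of transcript on a log axis for the 36 tested members, ordered by their mean in DMSO, with 1 point for each of the 5 libraries. MMP2 stands highest at 650 CPM per kb in DMSO, and the points of ADAMTS7 and ADAMTS5 in doxorubicin lie apart from those in DMSO.

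Among all tested genes, 4.02% passed in either direction, 1.29% with higher and 2.73% with lower values after doxorubicin. Of the 36 members, 1 was higher and 0 were lower. At an unadjusted p under 0.05, 9 members had higher and 3 had lower values, 12 in all, against 4368 of the 14187 genes. DESeq2 tested 37 members and called 6 (ADAMTS1, ADAMTS5, ADAMTS7 and ADAMTS13 higher, MMP16 and ADAM22 lower), where it called 14.1% of all genes. The doxorubicin libraries all lay above both DMSO libraries for 15 members (41.7%, against 24.3% of all genes tested) and all below for 4 (11.1%, against 23.4%), and the groups overlapped for the other 17. The fitted log2 fold change was positive for 28 members and negative for 8, with a median of 0.44 over the members and 0.01 over all genes tested. These counts and medians depend on the filter. MMP23A (4 and 3 counts in DMSO, 10, 15 and 19 in doxorubicin) was kept through its doxorubicin libraries. Those libraries also helped to keep MMP28 (14 and 5, then 40, 8 and 40) and TIMP4 (16 and 8, then 25, 6 and 39). ADAM32 (16 and 8, then 9, 7 and 8) was removed. By family, the median log2 fold change was 0.68 for MMP, 0.30 for ADAM, 1.04 for ADAMTS and 0.20 for TIMP genes. The summed level of the ADAMTS genes was 358 to 388 CPM in DMSO and 679 to 770 CPM in doxorubicin, and that of the MMP genes 3307 to 3543 and 3935 to 4701 CPM. A few genes carried these sums. ADAMTS7 (mean 32.1 CPM in DMSO, 163 in doxorubicin) and ADAMTS1 (71.5 and 196) had the largest ADAMTS rises. MMP2 (2284 and 3077) and MMP14 (1056 and 1288) made up most of the MMP sum. The sums of the ADAM and of the TIMP genes overlapped between the groups, at 1377 to 1712 against 1405 to 1656 CPM and at 931 to 1327 against 1144 to 1348 CPM.

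**Figure D2:**
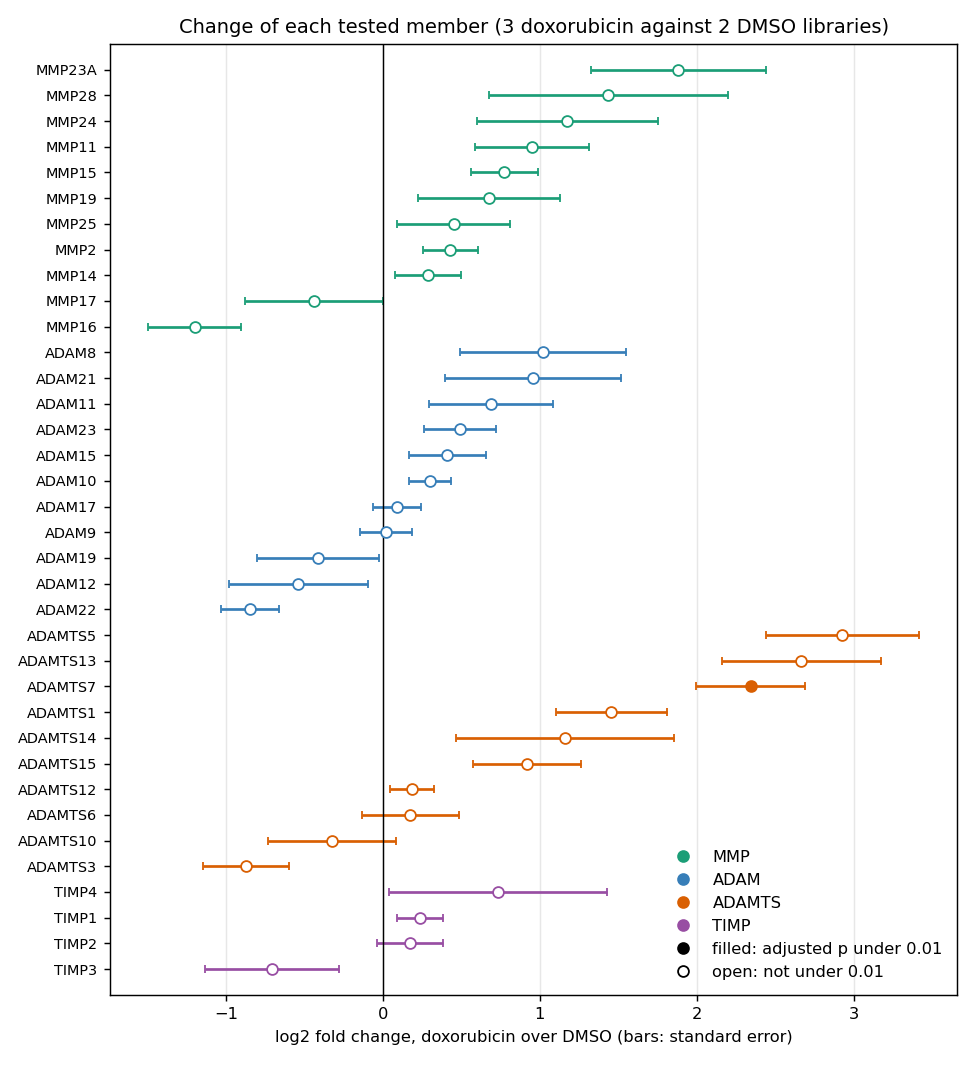
Fitted log2 fold change of doxorubicin over DMSO for the 36 tested members by family, with the standard error as bars. ADAMTS7 at 2.34 is the 1 filled point (adjusted p under 0.01), and ADAMTS5 and ADAMTS13 lie further right with wider errors.

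ADAMTS7 (chromosome 15, 78759206 to 78811464 in GRCh38) was measured at 41.8 and 22.5 CPM in DMSO, at 160 and 122 CPM in 0.2 µM and at 207 CPM in 0.34 µM doxorubicin. The lowest doxorubicin library stood well above the highest DMSO library. The log2 fold change was 2.34 ± 0.35 (SE; edgeR quasi-likelihood test, adjusted p = 0.00882). Leaving out any 1 library kept the direction, with a log2 fold change of 1.95 to 2.85, but took the adjusted p to between 0.018 and 0.0367 and so ended the call. The table also lists ADAMTS7P1, a pseudogene with a sequence close to that of ADAMTS7, with 6 and 5 counts in the DMSO libraries and 44, 18 and 51 counts after doxorubicin, so that part of the reads of this pair may be shared.

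The 250 bases before an annotated transcript start of ADAMTS7 and of ADAMTS13 are shown because these genes had high fold changes and a RefSeq promoter window (GRCh38.p14). The ADAMTS7 window ends where the gene begins, while the ADAMTS13 window lies inside the annotated span of its gene, which begins upstream at 133414337. Capitals mark GC boxes (GGGCGG, searched on both strands, overlaps allowed), the element bound by Sp1 and related factors.
ADAMTS7, chr15:78811465-78811714, minus strand: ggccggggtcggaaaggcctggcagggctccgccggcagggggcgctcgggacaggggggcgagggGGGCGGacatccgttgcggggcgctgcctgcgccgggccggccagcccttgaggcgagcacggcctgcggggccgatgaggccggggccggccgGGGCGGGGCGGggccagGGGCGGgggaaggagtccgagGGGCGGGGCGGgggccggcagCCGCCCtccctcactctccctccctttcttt
ADAMTS13, chr9:133422117-133422366, plus strand: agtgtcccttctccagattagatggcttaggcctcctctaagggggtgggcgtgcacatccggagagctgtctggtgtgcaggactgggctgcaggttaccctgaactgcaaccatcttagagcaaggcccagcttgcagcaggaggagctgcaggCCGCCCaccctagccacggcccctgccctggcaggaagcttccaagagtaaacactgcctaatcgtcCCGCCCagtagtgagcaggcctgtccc
The ADAMTS7 window held 7 GC boxes and was 80.8% G or C, and the ADAMTS13 window held 2 and was 61.2% G or C. The table holds 24 windows for 23 of the tested members, and a GC box was found in 20 of the 24 (83.3%), in 61.9% of the windows of all genes tested and in 42.6% of all 35116 windows. The AP-1 motif TGANTCA was found in 1 of the 24 (ADAMTS12; 4.57% of the windows of all genes tested and 6.57% of all windows), the TATA box TATAAA in 1 (ADAMTS10; 6.04 and 10.7%) and a p53 motif, a pair of CATG cores 6 bases apart, in 0 (0.185 and 0.296%). These matches describe the letters of the windows alone.

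The proteoglycan-cleaving ADAMTS genes cut aggrecan and versican. ADAMTS5 was at 4.23 and 3.21 CPM in DMSO, at 16.1 and 45.6 CPM in 0.2 µM and at 23.6 CPM in 0.34 µM doxorubicin. Its 3 doxorubicin libraries lay above both DMSO libraries but spread widely. The log2 fold change was 2.93 ± 0.49 (edgeR adjusted p = 0.0126). ADAMTS1 was at 71.0 and 72.1 CPM in DMSO, at 143 and 299 CPM in 0.2 µM and at 146 CPM in 0.34 µM doxorubicin. The DMSO libraries were close together, and replicate 2 of 0.2 µM stood highest for both genes. The log2 fold change of ADAMTS1 was 1.46 ± 0.35 (edgeR adjusted p = 0.0416). ADAMTS1 (26835755 to 26845409) and ADAMTS5 (26917922 to 26967088) lie 72.5 kb apart on chromosome 21 in GRCh38, with 1 annotated gene, LOC105372760, between them. ADAMTS15, of the same group, had a log2 fold change of 0.92 ± 0.34 with overlapping libraries (edgeR adjusted p = 0.124).

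ADAMTS13 (chromosome 9, 133414337 to 133459386, overlapping REXO4) was low, at 0.725 and 0.548 CPM in DMSO, 5.68 and 2.20 CPM in 0.2 µM and 4.30 CPM in 0.34 µM doxorubicin. All doxorubicin values lay above the DMSO values, with replicate 2 of 0.2 µM the lowest of them. The log2 fold change was 2.67 ± 0.51 (edgeR adjusted p = 0.019). Among the procollagen N-proteinases, ADAMTS3 was at 9.08 and 7.99 CPM in DMSO and at 5.88, 3.58 and 4.55 CPM in doxorubicin. Its doxorubicin libraries lay below those of DMSO, with a log2 fold change of −0.87 ± 0.27 (edgeR adjusted p = 0.0825). ADAMTS14, which trims the same substrates, had a log2 fold change of 1.16 ± 0.69 and overlapping libraries. The remaining tested ADAMTS genes, ADAMTS6, ADAMTS10 and ADAMTS12, had log2 fold changes of 0.17, −0.33 and 0.19.

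**Figure D3:**
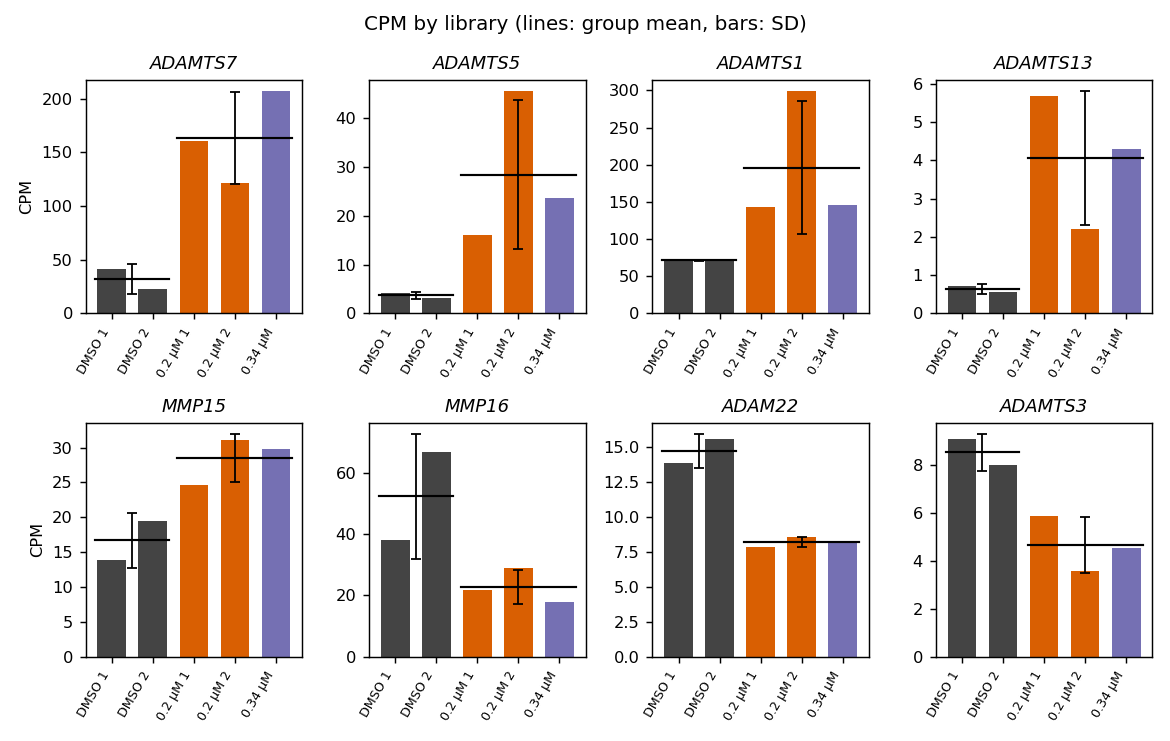
CPM by library for 8 members, with bars for the libraries, lines for the group means and error bars for the SD (DMSO, n = 2; doxorubicin, n = 3). The doxorubicin libraries lie above DMSO for ADAMTS7, ADAMTS5, ADAMTS1, ADAMTS13 and MMP15 and below it for MMP16, ADAM22 and ADAMTS3.

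The membrane-type MMPs work at the cell surface, and several of them activate proMMP2. MMP16 (chromosome 8, 88032011 to 88327483) was at 37.9 and 66.6 CPM in DMSO, at 21.7 and 28.9 CPM in 0.2 µM and at 17.9 CPM in 0.34 µM doxorubicin. The groups did not overlap although the DMSO libraries were far apart. The log2 fold change was −1.20 ± 0.30 (edgeR adjusted p = 0.0437). MMP15 was at 13.9 and 19.5 CPM in DMSO and at 24.7, 31.1 and 29.8 CPM in doxorubicin. It thus differed in the opposite direction from MMP16, with a log2 fold change of 0.77 ± 0.21 (edgeR adjusted p = 0.0593). MMP14, the chief activator of MMP2, was at 962 and 1150 CPM in DMSO and at 1411, 1024 and 1427 CPM in doxorubicin. Its groups overlapped, with a log2 fold change of 0.29 ± 0.21 (edgeR adjusted p = 0.404). MMP17, MMP24 and MMP25 had log2 fold changes of −0.44, 1.18 and 0.45, and without a stated strand setting the reads of MMP24 and MMP25 cannot be told apart from those of the antisense genes MMP24-AS1 and MMP25-AS1 where they overlap.

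The gelatinases cut denatured and basement-membrane collagen. MMP2 was at 2512 and 2056 CPM in DMSO and at 3214, 2831 and 3185 CPM in doxorubicin. The doxorubicin libraries all stood above DMSO, by a log2 fold change of 0.43 ± 0.18 (edgeR adjusted p = 0.155). MMP9, the other gelatinase, had 0 counts in both DMSO libraries and 10 in doxorubicin. The latter stood 2.00-fold above a floor of 3 counts over the DMSO group (0.058 CPM), without allowing for counting error. Of the stromelysins, MMP11 was at 3.93 and 3.995 CPM in DMSO and at 10.2, 4.66 and 8.07 CPM in doxorubicin, with a log2 fold change of 0.95 ± 0.36 (edgeR adjusted p = 0.132). Its replicate 2 of 0.2 µM lay close to DMSO. The collagenase MMP1 had 1 and 3 counts in the DMSO libraries and 2, 2 and 0 with doxorubicin, and the stromelysin MMP3 had 0 counts except 1 in the 0.34 µM library. MMP23A, a transcribed pseudogene nearly identical to MMP23B, had 4 and 3 counts in the DMSO libraries and 10, 15 and 19 with doxorubicin (log2 fold change 1.88 ± 0.56, edgeR adjusted p = 0.0698), so that reads of this pair are uncertain. MMP19 and MMP28 had log2 fold changes of 0.68 and 1.44 with overlapping libraries.

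ADAM10 and ADAM17 are the main sheddases, ADAM10 of Notch and cadherins and ADAM17 of TNF and EGF-receptor ligands. ADAM10 was at 190 and 182 CPM in DMSO and at 232, 224 and 230 CPM in doxorubicin. The groups were narrow and did not overlap, but the log2 fold change of 0.30 ± 0.13 did not pass (edgeR adjusted p = 0.187). ADAM17 was at 69.4 and 56.3 CPM in DMSO and at 69.8, 64.5 and 66.7 CPM in doxorubicin, and its groups overlapped (log2 fold change 0.09 ± 0.15). ADAM9 was at 737 and 602 CPM in DMSO and at 678, 722 and 636 CPM in doxorubicin, within the range of DMSO, and its log2 fold change of 0.02 ± 0.17 turned negative with library size alone and without DMSO replicate 2 or replicate 2 of 0.2 µM. ADAM15 was at 81.7 and 137 CPM in DMSO and at 155, 124 and 157 CPM in doxorubicin, with a log2 fold change of 0.41 ± 0.25. The groups of ADAM15 overlapped.

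ADAM12 and ADAM19, which shed ligands of EGF-family receptors, varied widely between libraries of a group. ADAM12 was at 192 and 88.8 CPM in DMSO and at 127, 51.5 and 111 CPM in doxorubicin. ADAM19 was at 346 and 243 CPM in DMSO and at 296, 114 and 253 CPM in doxorubicin. For both, replicate 2 stood below replicate 1 at DMSO and at 0.2 µM, and the log2 fold changes of −0.54 ± 0.44 and −0.41 ± 0.39 did not pass. ADAM22, a catalytically inactive ADAM that binds LGI proteins at synapses, was at 13.8 and 15.5 CPM in DMSO and at 7.81, 8.52 and 8.18 CPM in doxorubicin. Its libraries were tight in both groups, with a log2 fold change of −0.85 ± 0.19 (edgeR adjusted p = 0.0299). The related inactive members ADAM11 and ADAM23 had log2 fold changes of 0.69 and 0.49, and the proteases ADAM8 and ADAM21 of 1.02 and 0.96. None of these 4 passed.

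No TIMP of the 4 passed the edgeR test or DESeq2, and 0 had an unadjusted p under 0.05. Of all genes, 4.02% passed the edgeR test and 14.1% DESeq2, and 4368 of 14187 had an unadjusted edgeR p under 0.05. A count over 4 genes is too small to set against these shares. TIMP1 was at 89.7 and 78.5 CPM in DMSO and at 100.2, 91.7 and 105 CPM in doxorubicin, all above DMSO by a log2 fold change of 0.24 ± 0.14 (edgeR adjusted p = 0.321). TIMP2 was at 1236 and 851 CPM in DMSO and at 1236, 1051 and 1241 CPM in doxorubicin, and its log2 fold change of 0.17 ± 0.21 turned to −0.09 without DMSO replicate 2. TIMP3, the matrix-bound inhibitor that is mutated in Sorsby fundus dystrophy, was at 0.687 and 0.627 CPM in DMSO and at 0.425, 0.457 and 0.331 CPM in doxorubicin. TIMP3 was thus low in every library of these cells, with a log2 fold change of −0.70 ± 0.43. TIMP4 was at 0.610 and 0.313 CPM in DMSO and at 0.967, 0.249 and 1.07 CPM in doxorubicin, and its groups overlapped. TIMP1, TIMP3 and TIMP4 each overlap a synapsin gene (SYN1, SYN3 and SYN2).

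**Figure D4:**
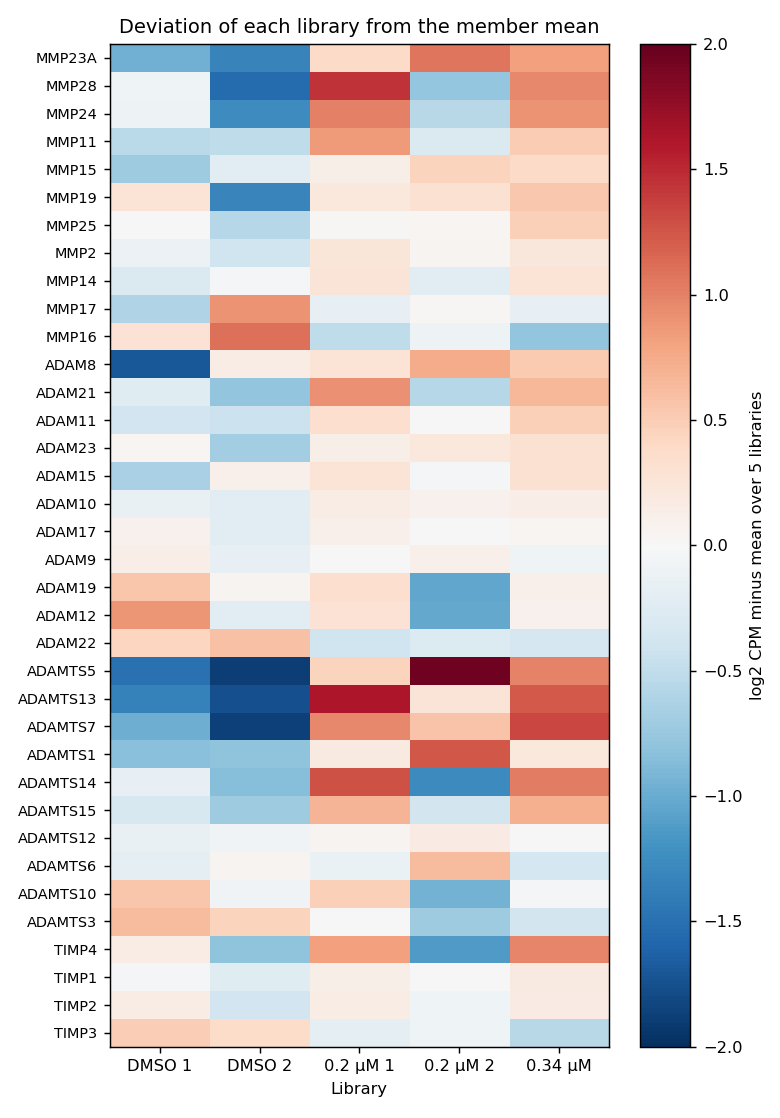
Log2 CPM of each library minus the mean over the 5 libraries for the 36 tested members, red above and blue below. ADAMTS7, ADAMTS5, ADAMTS1 and ADAMTS13 are blue in both DMSO columns and red in the 3 doxorubicin columns, while ADAM12 and ADAM19 have their lowest value in replicate 2 of 0.2 µM.

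The doses were compared in a fit of all 3 conditions, in which the 0.34 µM library is assumed to vary like the others. No gene passed the edgeR test between 0.34 and 0.2 µM (0% of all genes), and at an unadjusted p under 0.05 there were 0 members and 22 genes in all. DESeq2 called 0 members. Against the shared DMSO libraries, ADAMTS7 had a log2 fold change of 2.13 ± 0.34 at 0.2 µM and 2.69 ± 0.39 at 0.34 µM, a difference of 0.56 ± 0.39. ADAMTS5 had 3.05 ± 0.52 and 2.66 ± 0.57, ADAMTS13 2.62 ± 0.60 and 2.75 ± 0.67 and ADAMTS1 1.63 ± 0.36 and 1.03 ± 0.41. MMP16 had −1.05 ± 0.33 and −1.54 ± 0.43. All 5 genes kept their sign at both doses, and the standard errors of the doses were between 0.33 and 0.67. The share of all genes passing the threshold at each dose against DMSO is not given here. The count of members that passed, given next, therefore cannot be set against it. In this fit 0 members passed at either dose against DMSO, with 8 and 7 of the 36 at an unadjusted p under 0.05. Of all 14187 genes tested, 2741 and 2530 were under 0.05.

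The filter on low counts removed 33 members, and 6 of these had 0 counts in all libraries (MMP12, MMP26, MMP27, ADAM6, ADAM18 and ADAM33). In 28 of the 33 no library exceeded 5 counts. Of the 27 with any count, 17 (63%) had 0 counts in DMSO and at least 1 in doxorubicin, against 44.7% of the 6530 untested genes with any count, and the doxorubicin libraries together held 87027067 counts against 51184429 in DMSO. ADAMTS18 had 2 counts in DMSO and 20 in doxorubicin, a depth-scaled ratio of 6.003 (95% exact interval 1.46 to 52.97, counting error only). ADAMTS20 and ADAMTS8 had 0 counts in DMSO and 17 and 12 in doxorubicin, 3.40-fold and 2.40-fold above a floor of 3 DMSO counts. These ratios do not allow for counting error. ADAMTS20 had 13 of its 17 counts in replicate 2 of 0.2 µM. ADAM32 had 24 counts in each group and ADAMTS17 had 15 and 16, depth-scaled ratios of 0.60 (95% exact interval 0.326 to 1.10) and 0.64 (0.296 to 1.39).

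Genes that act on these proteases were counted from lists of the pathway. Of 8 tested regulators of ADAM10 and ADAM17, 2 rose and 0 fell in the edgeR test, where 1.29% of all genes tested were called higher and 2.73% lower. DESeq2, which called 14.1% of all genes, also called RHBDF1 and FRMD8 higher (DESeq2 adjusted p = 0.00728 and 0.0028). RHBDF2 (iRhom2), which carries ADAM17 to the cell surface, was at 14.1 and 16.8 CPM in DMSO and at 45.6, 39.5 and 53.7 CPM in doxorubicin, with a log2 fold change of 1.58 ± 0.20 (edgeR adjusted p = 0.00529). TSPAN10, a tetraspanin partner of ADAM10, was at 11.7 and 12.8 CPM in DMSO and at 64.6, 61.5 and 80.7 CPM in doxorubicin, with a log2 fold change of 2.49 ± 0.20 (edgeR adjusted p = 0.00112). The groups were thus far apart for both partners, beside ADAM10 and ADAM17 themselves at 0.30 and 0.09.

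Of 11 AP-1 and ETS factors, known regulators of MMP promoters, 0 rose and 1 fell in the edgeR test, against the same 1.29% and 2.73% of all genes. DESeq2 called ETV4 lower as well (DESeq2 adjusted p = 0.00174). FOSL1, an AP-1 subunit, was at 509 and 466 CPM in DMSO and at 139, 166 and 128 CPM in doxorubicin, far below DMSO, with a log2 fold change of −1.76 ± 0.17 (edgeR adjusted p = 0.00186). None passed the edgeR test of 3 proprotein convertases, 5 other inhibitors, 5 ADAMTS-like genes or 3 genes of induction, uptake and docking. In the last list DESeq2 called LRP1 and BSG higher (DESeq2 adjusted p = 1.02e-06 and 0.00856). LRP1, the endocytic receptor for several of these proteases and inhibitors, belongs to the last list and had a log2 fold change of 1.06 ± 0.18 (edgeR adjusted p = 0.0139).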

How the data were processed

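Per the labels and the study's methods, the authors sequenced poly-A RNA as 75 bp paired ends, aligned reads with STAR to hg38 and counted them per gene with featureCounts. Versions, the strand setting and the handling of multi-mapped reads are not stated in the sources used. The deposited table holds raw counts for 26485 genes in 5 libraries, which the study's methods call biological replicates (23773061 to 36725345 counts). The authors' table of DESeq2 fold changes and p-values was not used. Doses follow the group labels (0.2 and 0.34 µM), while the treatment text gives 200 and 340 µM.

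Counts were filtered with filterByExpr (minimum count 10, minimum total 15), scaled by TMM and tested with the edgeR (4.0.16, R 4.3.3) quasi-likelihood test, 3 doxorubicin against 2 DMSO libraries, with Benjamini-Hochberg adjustment over 14187 genes and a threshold of 0.01. A fit of 3 conditions gave the doses. CPM use the TMM-scaled library sizes, and the error of a log2 fold change is its standard error. DESeq2 (1.42.0), limma voom (3.58.1), other scaling, no filter, a threshold of 0.05, left-out libraries and a replicate block were alternatives. Positions and promoters come from RefSeq (GRCh38.p14), where 69 of 69 members matched by symbol, and transcript lengths from GENCODE. On simulated data with 200 of 14187 genes changed 4-fold in this comparison, the edgeR test recovered 70.3%, with 2.96% of calls false. DESeq2 recovered 81.3%, with 11.6% of calls false. The simulated libraries were drawn independently, without a shared replicate effect, and in the data DESeq2 called 2026 genes. These false shares therefore do not give the error rate of the calls reported here. Replicates of a group differed by more than counting noise.

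Named members were those past the threshold, up to 10 of smallest unadjusted p under 0.05 without overlap of the groups, and a list of well-known members; the fold change alone is given for others. ADAMTS8, ADAMTS17, ADAMTS18, ADAMTS20 and ADAM32 were named after their counts were seen. The members and gene lists were chosen with earlier results of these data known. Another list of pathway genes is not reported here.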

Additional observations from a re-analysis of the deposited data

How the results depend on the processing

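The count of 1 member past the threshold became 6 with DESeq2 (4 higher, 2 lower), 6 at an adjusted p under 0.05 (4 higher, 2 lower), 3 without a filter on low counts (3 higher), 0 for 0.2 µM against DMSO in the fit of 3 conditions (0 higher), and 0 to 1 when 1 library was left out (0 to 1 higher). The 1 call without replicate 1 of 0.2 µM was ADAMTS5, and leaving out any other library gave 0. With fewer libraries the test has fewer degrees of freedom. limma voom, DESeq2's size factors and library size alone each gave 1, ADAMTS7. Of all genes, the main edgeR test called 4.02% and DESeq2 14.1%. No such share is given here for limma voom, the other scalings or an adjusted p under 0.05. It is also not given without the filter, in the fit of 3 conditions or with 1 library left out. The member counts under those settings therefore cannot be set against all genes. With the replicate number as a block, which leaves the 4 DMSO and 0.2 µM libraries, 5 members passed (4 higher, 1 lower: ADAMTS1, ADAMTS5, ADAMTS7, ADAMTS13 and MMP16), and 1249 genes in all against 178 on the same libraries without the block. The differences between replicates 1 and 2 correlated between DMSO and 0.2 µM (Pearson r = 0.528 across 14187 genes, which are not independent), but the labels do not say that the numbers mark a shared batch.

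The median log2 fold change of 0.44 became 0.96 without the filter, which admits members at 0 in DMSO. Signs turned for 4 members that passed under no alternative. With 1 library left out, the log2 fold change ran from −0.089 to 0.459 for TIMP2, from −0.0687 to 0.244 for ADAM17, from −0.138 to 0.164 for ADAM9 and from −1.002 to 0.119 for ADAM12, and that of ADAM9 was −0.0054 with library size alone. The cause was not tested. Over 262 refitted values of 22 members, 238 kept direction and side of the threshold. Only ADAMTS7 had a call to lose, and it lost it in 6 of its 12 refits. The test missed part of the 4-fold changes in simulated data, so that smaller ones can be missed, and members near 0 counts could not be tested.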
